A study of Homo sapiens with 6 samples.

Results

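The amino acid transporter families SLC1A, SLC3A, SLC7A, SLC36A, SLC38A and SLC43A were examined in U251 cells, an established human glioma line, after exposure to the inhaled anesthetic sevoflurane (Sev). The genes were taken by name, as every protein-coding gene of the table with a symbol of 1 of these 6 families, and the name alone decided, although the families and the lists of related genes were picked with earlier results of these data known. This gave 40 genes of 61496 listed features, of which 29 had enough reads to be tested. The data were 6 strand-specific RNA sequencing libraries depleted of ribosomal RNA, 3 from untreated control cells (control 1 to 3) and 3 from cells kept in Sev gas for 2 h (Sev 1 to 3). The deposited protocol lists Sev at 1.7%, 3.4% and 5.1% and does not tie a concentration to a library, and a legend of the published account names 5.1% for the sequenced cells. The study describes its quantitative data as coming from independent experiments without naming the sequencing, and the labels do not say that libraries of a group came from separate cultures, so the p-values measure only the spread between these libraries, which may be technical. In RNA from whole cultures, a change in the makeup of the cells and a change in RNA per cell cannot be told apart.

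Solute carriers of these families move amino acids across the plasma membrane and the lysosomal membrane. The light chains of the SLC7 family reach the cell surface bound to a heavy chain of the SLC3 family. SLC3A2 (CD98, 4F2hc) pairs with SLC7A5 (LAT1) for large neutral amino acids and with SLC7A11 (xCT), which brings cystine in against glutamate and so feeds glutathione synthesis. SLC1A carriers take up glutamate, aspartate and small neutral amino acids, SLC38A carriers take up glutamine and other neutral amino acids with sodium, and SLC36A carriers move small amino acids with protons. The transcription factor ATF4 is known to act on several of these genes when amino acids run short or proteins misfold, and NRF2 on SLC7A11 under oxidative stress.

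Promoter letters are shown first, because these are the sequences through which ATF4 and NRF2 are known to act. Windows of 300 bases, from 250 before to 50 after each start of transcription, came from RefSeq on GRCh38.p14 and covered 31 of the 40 genes, with no entry for 9, SLC7A11 and SLC1A2 among them. The letters TGATGNAA (ATF4 with C/EBP) and TGACNNNGC (antioxidant response element) were searched on both strands. TGATGNAA stood in 3.62% of all 35116 windows and in 4.46% of 27305 genes, and in 6 of the 31 transporter genes, or 11.3% of their 53 windows. TGACNNNGC stood in 13.3% of windows and 16.1% of genes, and in 7 of the 31 transporter genes, or 13.2% of their windows, about the share of all windows. SLC1A3, SLC1A5, SLC3A2 and SLC7A1 held both. The 8 genes with a window that rose after Sev held TGATGNAA in 4 cases and TGACNNNGC in 5, the 4 that fell held neither, and the other 19, tested or not, held each in 2 cases. A match is a description of letters and not a binding site. Sites of genes that rose are printed on the strand of the gene in runs of 30 bases, with the matching letters in capitals.
SLC3A2 chr11:62881652-62881681: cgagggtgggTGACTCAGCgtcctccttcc
SLC3A2 chr11:62881719-62881748: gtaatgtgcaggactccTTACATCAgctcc
SLC7A1 chr13:29595754-29595783: tgcccggcggTGACGCGGCcgagcgggccg
SLC7A1 chr13:29595663-29595692: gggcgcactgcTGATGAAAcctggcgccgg
SLC7A5 chr16:87869490-87869519: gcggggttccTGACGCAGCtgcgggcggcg
SLC7A7 chr14:22819860-22819889: cctctgggtcTGACCAGGCagtcccagctc
SLC1A5 chr19:46784893-46784922: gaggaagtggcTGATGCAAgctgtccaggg
SLC1A5 chr19:46787385-46787414: cctggatcttGCGAGGTCAgctcccgctcc
SLC38A1 chr12:46266502-46266531: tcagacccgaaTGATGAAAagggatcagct

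Counting the start of transcription as 1, the match TGACTCAGC of SLC3A2 began at position -37 and its second match, TTACATCA, which is TGATGNAA read on the other strand, at position 38. In SLC7A1 the matches began at positions -85 and 8, in SLC7A5 at position -2, in SLC38A1 at position -4 and in SLC7A7 at position -88. The SLC1A5 matches lay before separate starts, at positions -97 and -111. The windows of SLC3A2, SLC7A7, SLC1A5 and SLC38A1 lay within the gene bounds of GENCODE 29, since those genes have several starts. The full 250 bases before the start of SLC7A1 and of SLC7A5, a pair of abundant carriers that rose, held no GENCODE 29 exon. They are given as context for the sites, with the letters in capitals where the match lay whole within them, which was so only for the match of SLC7A1 at -85.
SLC7A1 chr13:29595689-29595938: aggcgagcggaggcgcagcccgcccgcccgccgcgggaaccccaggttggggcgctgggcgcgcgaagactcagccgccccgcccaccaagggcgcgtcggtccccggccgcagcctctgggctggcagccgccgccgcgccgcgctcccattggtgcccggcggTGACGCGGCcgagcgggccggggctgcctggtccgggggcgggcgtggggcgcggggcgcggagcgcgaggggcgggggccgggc
SLC7A5 chr16:87869508-87869757: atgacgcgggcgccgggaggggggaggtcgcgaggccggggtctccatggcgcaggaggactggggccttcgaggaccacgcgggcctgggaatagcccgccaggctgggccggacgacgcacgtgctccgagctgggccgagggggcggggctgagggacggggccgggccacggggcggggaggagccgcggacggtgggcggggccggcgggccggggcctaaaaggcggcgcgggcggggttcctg

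The libraries held between 38624292 and 46318311 counts. The 7 glioma and astrocyte lineage markers were all detected, at a summed 7674 to 8571 CPM (read counts scaled to a common library total after TMM, which corrects for library composition) in control and 8734 to 9201 CPM in Sev. Markers of other cell types were low, with sums of at most 18.2 CPM for neurons, 7.56 for oligodendrocytes, 4.18 for leukocytes and 10.3 for endothelium in control. In Sev the sums reached at most 24.9, 8.68, 8.33 and 12.7 CPM, and STMN2, AIF1 and CD3E had 0 counts in every library. Single markers moved within these sums. Of the 7 lineage markers 2 rose and 2 fell (28.6% each), where 22.1% of all tested features rose and 21.5% fell. CD44 (log2 fold change 0.97, edgeR adjusted p = 0.000174) and EGFR (0.27, adjusted p = 0.0451) rose. The EGFR call was kept in 2 of 6 fits with a library left out. S100B (−1.10, adjusted p = 0.00215) and SOX2 (−0.72, adjusted p = 0.000367) fell, and GFAP, VIM and NES did not pass. Among the 10 tested markers of other cell types 5 rose and 0 fell, and MBP went from 2.52 to 5.06 CPM. Their part in the results was not tested.

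Per gene length, a small group of carriers supplied most of the transporter RNA. In control cells the deposited FPKM values were highest for the glutamine and neutral amino acid exchanger SLC1A5 at 36.8 ± 4.17 (SD, n = 3), the glutamine carrier SLC38A2 at 30.2 ± 0.157 and SLC7A5 at 26.8 ± 4.03. SLC7A11 followed at 22.4 ± 1.62 FPKM and the cationic amino acid carrier SLC7A1 at 18.6 ± 1.01. SLC7A5 and SLC7A11 overlapped between libraries in this order, as did SLC1A3, SLC3A2, SLC38A10 and SLC38A1 at means between 12.5 and 14.5 FPKM. After Sev the order was SLC7A5 at 50.7 ± 1.98 FPKM, SLC38A2 at 44.5 ± 17.1, SLC1A5 at 43 ± 1.64, SLC7A1 at 40.7 ± 1.33, SLC7A11 at 30.1 ± 1.83 and SLC3A2 at 27.3 ± 1.82. The spread of SLC38A2 between Sev libraries covered its neighbours in that order, and SLC1A5 overlapped with SLC7A1, and SLC7A11 with SLC3A2. In all, 9 of the 40 genes reached 10 FPKM in control and 8 in Sev, and 19 and 18 reached 1 FPKM.

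The summed FPKM of the 40 genes was 208, 222 and 221 in control and 289, 313 and 284 in Sev. The 6 most abundant carriers of each library held 68.9%, 70.2% and 68.8% of this sum in control and 79.7%, 79.9% and 80.3% in Sev. Sev libraries were higher than every control library in both measures.

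**Figure D1:**
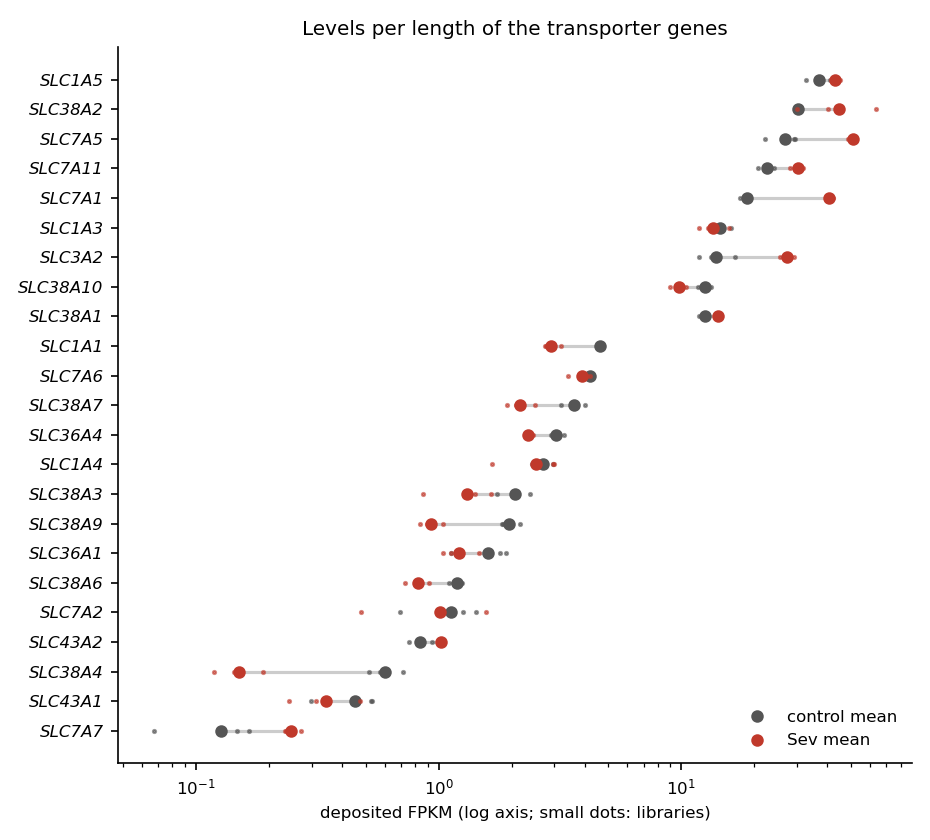
Deposited FPKM on a log axis of the 23 transporter genes at or above 0.1 FPKM in control, with large points for the means of control (grey) and Sev (red) and small points for each library. At the high end SLC7A5, SLC7A1 and SLC3A2 stood apart between groups, while the points of SLC1A3 overlapped at 14.5 and 13.5 FPKM.

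After Sev, 11 of the 29 tested transporter genes rose and 4 fell, with 14 not past an adjusted p of 0.05 (quasi-likelihood test of edgeR, adjusted by Benjamini-Hochberg over all 27514 tested features). The share that passed was 43.7% over all features and 45.9% over protein-coding genes. The transporter genes that rose made up 37.9% of those tested, beside 22.1% of all features and 25.0% of protein-coding genes, and those that fell 13.8%, beside 21.5% and 21.0%. At the threshold the study used, a log2 fold change beyond 1 in size with an unadjusted p under 0.05, 7 rose and 1 fell, where 11.4% of all features and 9.07% of protein-coding genes rose and 12% and 7.62% fell. All Sev libraries lay above all control libraries in CPM for 12 genes and below them for 6, against 28.3% and 28.2% of all features and 31.2% and 26.6% of protein-coding genes. SLC38A8 and SLC43A3 had under 10 counts in every control library and passed the filter through Sev, so they could be tested only where Sev was high. Both are among the 11, the 7 and the 12 genes counted above as higher in Sev, so each of these counts includes them. Without them 9 of 27 rose (33.3%) and 4 fell (14.8%) at an adjusted p under 0.05.

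The split between directions moved with the scaling, for the transporter genes and for all features. Without TMM, by library size alone, 8 transporter genes rose and 7 fell, where 17% of all features rose and 27.3% fell. With the deposited FPKM values on the log2(FPKM + 1) scale 4 rose and 7 fell of 21 genes with at least 0.5 FPKM in 3 libraries, where 16.4% of all features rose and 30% fell. The median log2 fold change over all features was −0.01 with TMM, −0.15 by library size alone and −0.11 in FPKM, and over protein-coding genes it was 0.04, −0.10 and −0.10. The median of the transporter genes was 0.04 with TMM and −0.11 by library size alone over 29 genes, and −0.10 in FPKM over 21. The transporter median moved with the genes and libraries included, to 0.31 without a filter on low counts (0.06 over protein-coding genes) and to between 0.069 and 0.32 with a library left out (0.026 to 0.049 over protein-coding genes). SLC7A1, SLC7A5, SLC3A2 and SLC7A11 rose, and SLC1A1, SLC38A4, SLC38A7 and SLC38A9 fell, on each of these scales, although SLC38A4 met the FPKM minimum only through its control libraries.

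**Figure D2:**
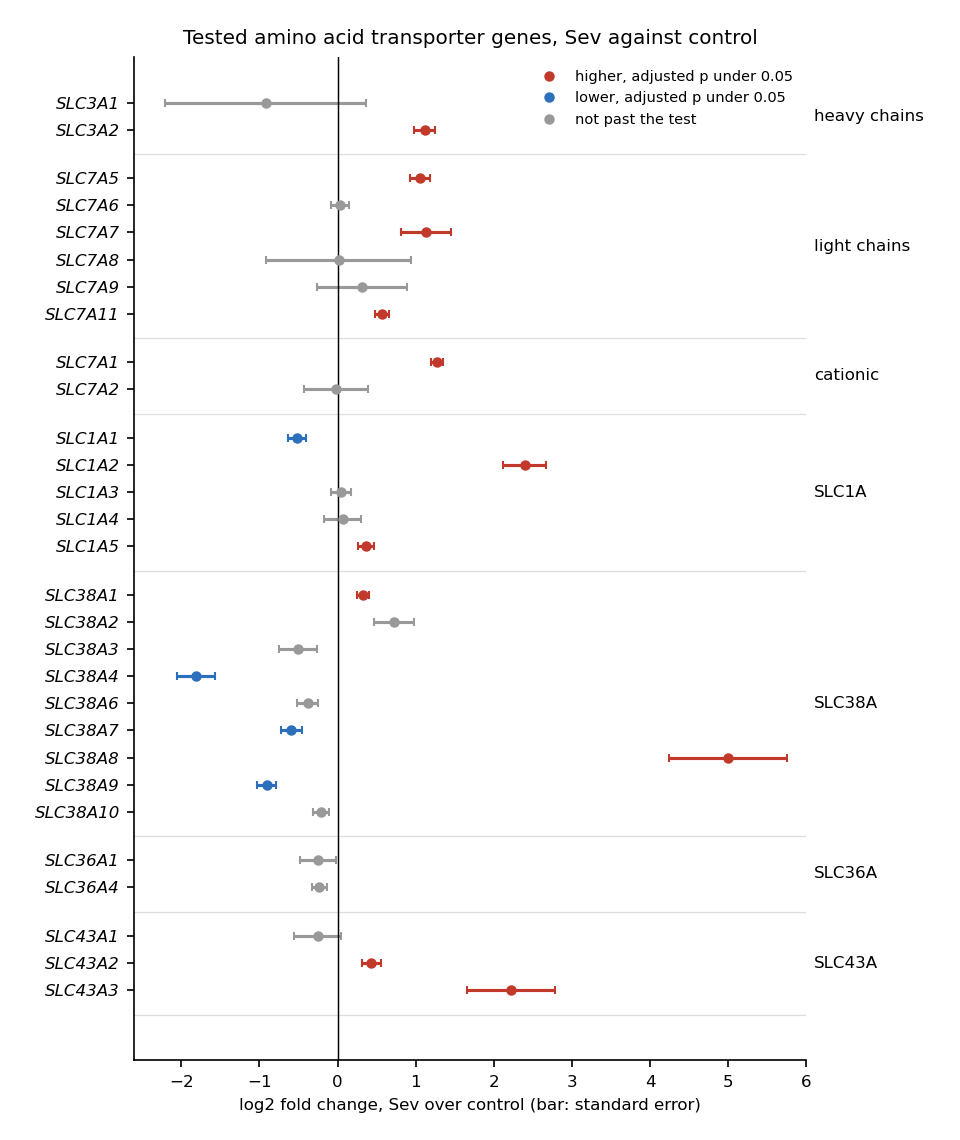
Log2 fold change (Sev over control) of the 29 tested transporter genes by family role, with bars of 1 standard error, red for genes higher and blue for genes lower at adjusted p under 0.05, and grey for the rest. The SLC7A, SLC3A and SLC43A genes that passed lay to the right of 0, and the SLC38A genes lay on both sides, with SLC38A8 at a fitted value that depends on its near-absent control counts.

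Among heavy chains, SLC3A2 (ENSG00000168003, chr11:62856102-62888875, plus strand in GENCODE 29 on GRCh38) rose and SLC3A1 did not pass. SLC3A2 measured 70.3, 81.9 and 102 CPM in control 1 to 3 and 184, 177 and 189 CPM in Sev 1 to 3. The groups lay well apart, and the log2 fold change was 1.11 (SE 0.13, adjusted p = 0.000609), a 2.17-fold rise from 84.7 ± 16 to 183 ± 6.07 CPM. It fell to 0.98 by library size alone and to 0.99 without control 1, just short of the study's limit. SLC3A1, the heavy chain of kidney and gut cystine uptake, lay at or under 1.06 CPM in every library, with 0 counts in 1 library of each group, and its log2 fold change of −0.92 had a larger SE of 1.28 (adjusted p = 0.588).

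All 3 light chains that passed are partners of SLC3A2. SLC7A5 (ENSG00000103257, chr16:87830023-87869488, minus strand), the carrier of leucine and other large neutral amino acids, measured 122, 167 and 163 CPM in control and 299, 333 and 310 CPM in Sev. The groups did not overlap, and its log2 fold change was 1.06 (SE 0.13, adjusted p = 0.000647), or 2.08-fold, with 0.92 both by library size alone and without control 1. The pseudogenes SLC7A5P1 and SLC7A5P2 share sequence with it, so reads could be split among them. SLC7A5P1 held 25, 31 and 63 counts in control and 109, 89 and 137 in Sev (log2 fold change 1.69, SE 0.31, adjusted p = 0.00398), few beside the parent gene, and SLC7A5P2 did not pass (0.30, adjusted p = 0.322).

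SLC7A11 (ENSG00000151012, chr4:138164097-138242349, minus strand), the cystine and glutamate exchanger whose block starts ferroptosis, measured 230, 261 and 273 CPM in control and 397, 365 and 370 CPM in Sev. Every Sev library lay above every control library. The rise was smaller than that of its heavy chain, from 255 ± 22.0 to 378 ± 17.3 CPM, with a log2 fold change of 0.57 (SE 0.089, adjusted p = 0.00189). It stayed under the study's fold limit and kept its adjusted p between 0.0043 and 0.0116 when each library was left out in turn. The overlapping antisense gene SLC7A11-AS1 also rose (0.68, adjusted p = 0.00505). SLC7A7 (ENSG00000155465, chr14:22773222-22829820, minus strand), the y+LAT1 light chain for cationic amino acids, measured 0.993, 0.429 and 0.906 CPM in control and 1.88, 1.70 and 1.56 CPM in Sev. The groups did not overlap at this low level, and the log2 fold change of 1.14 (SE 0.32, adjusted p = 0.0219) lost its call without Sev 1, at an adjusted p of 0.0666, and was 0.85 without control 2.

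SLC7A6, the y+LAT2 light chain, measured 37.8 ± 1.41 CPM in control and 38.7 ± 5.25 CPM in Sev (log2 fold change 0.04, SE 0.12, adjusted p = 0.828). SLC7A8 (LAT2) and SLC7A9, the light chain of SLC3A1, lay under 0.6 CPM in every library and did not pass (adjusted p = 0.992 and 0.687). Summed over the 6 light chains that pair with SLC3A2, among which SLC7A10 had no count, the FPKM per FPKM of SLC3A2 was 4.01, 4.26 and 3.44 in control and 3.08, 3.32 and 2.95 in Sev. Each Sev ratio was lower than each control ratio, with means of 3.90 ± 0.418 and 3.12 ± 0.184. The exact permutation test gave a two-sided p = 0.1, the smallest that 3 libraries against 3 allow, and the ratio was chosen after the values had been seen.

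SLC7A1 (ENSG00000139514, chr13:29509410-29595688, minus strand), the CAT1 carrier of arginine and lysine, had the smallest adjusted p of the families. It measured 154, 176 and 174 CPM in control and 401, 411 and 408 CPM in Sev. The Sev libraries lay close to each other and far above control, and the mean rose from 168 ± 12.3 to 406 ± 5.14 CPM (log2 fold change 1.27, SE 0.081, adjusted p = 7.42e-05, 2.42-fold). The adjusted p stayed between 0.000317 and 0.00095 when each library was left out. SLC7A2, the other tested cationic carrier, scattered within groups, with 11.6, 6.59 and 13.3 CPM in control and 4.96, 10.5 and 15.6 CPM in Sev, and did not pass (−0.02, SE 0.41, adjusted p = 0.975).

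**Figure D3:**
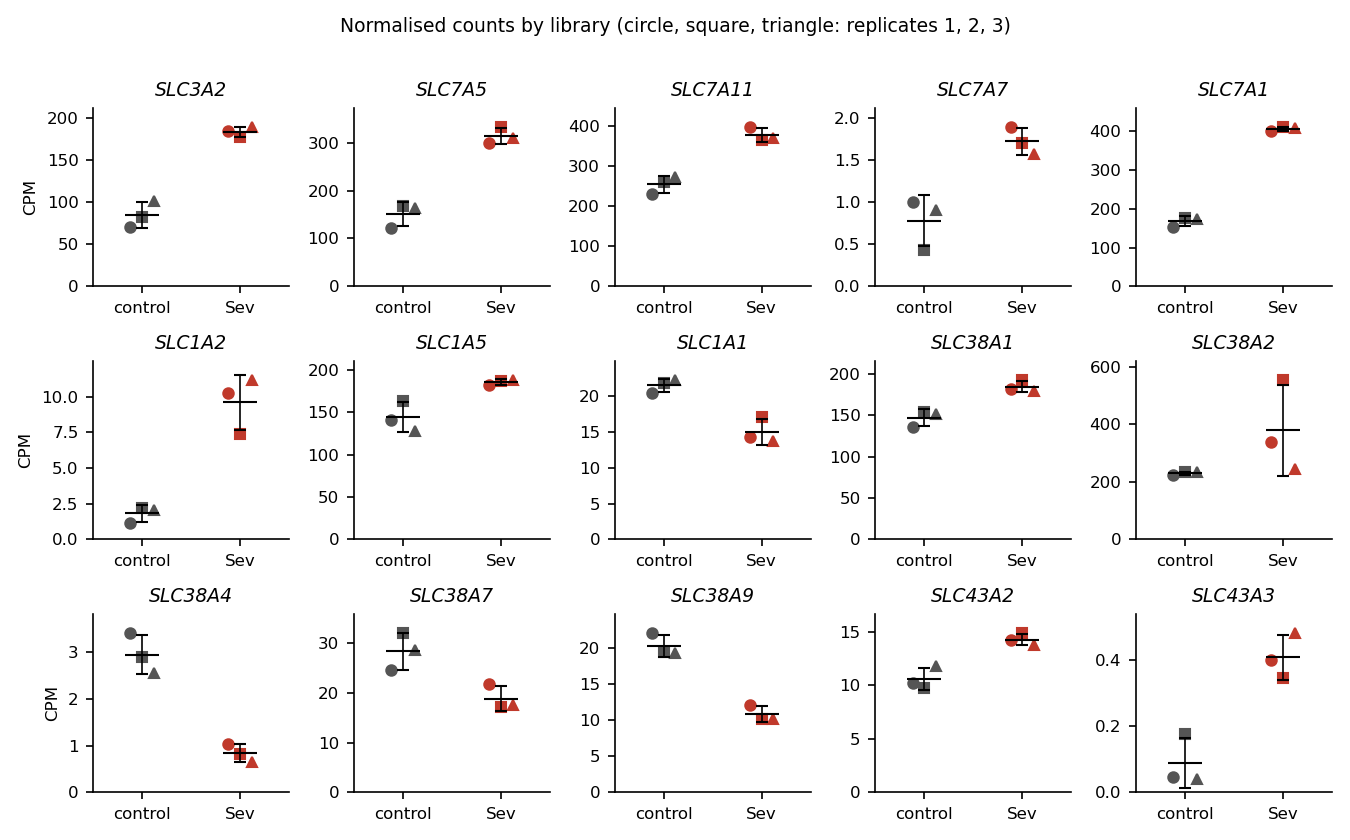
CPM of 15 transporter genes in each library, with circle, square and triangle for replicates 1, 2 and 3 and bars for the mean and SD of 3 libraries. SLC7A1 and SLC3A2 in Sev stood apart from control with little spread, whereas SLC38A2 ranged from 244 to 554 CPM among Sev libraries.

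The glutamate carriers of the SLC1A family moved in different directions. SLC1A2 (ENSG00000110436, chr11:35251205-35420063, minus strand), known as GLT-1, the main glutamate carrier of astrocytes, measured 1.16, 2.22 and 2.08 CPM in control and 10.2, 7.40 and 11.1 CPM in Sev. The groups were far apart, and its log2 fold change of 2.39 (SE 0.28, adjusted p = 0.000559) was the largest rise among members measured above 10 counts in every library. Its level per length stayed low, at 0.0657 ± 0.0194 FPKM in control and 0.322 ± 0.0761 FPKM in Sev. The antisense gene SLC1A2-AS1 held 3, 4 and 0 counts in control and 16, 20 and 52 in Sev, and could be tested only where Sev was high. SLC1A1 (ENSG00000106688, chr9:4490444-4587469, plus strand), the EAAC1 carrier of glutamate and cysteine, fell. It measured 20.5, 21.9 and 22.2 CPM in control and 14.3, 17.1 and 13.7 CPM in Sev, without overlap (−0.52, SE 0.12, adjusted p = 0.00983).

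SLC1A5 (ENSG00000105281, chr19:46774883-46788594, minus strand), known as ASCT2, measured 141, 163 and 128 CPM in control and 182, 188 and 188 CPM in Sev. The groups did not overlap, but the rise was smaller than those above (log2 fold change 0.37, SE 0.098, adjusted p = 0.0187). The call was lost without control 1 (adjusted p = 0.0602), control 3 (0.0758) or Sev 1 (0.0527), and by library size alone (0.0846). SLC1A3, the GLAST carrier of glia, measured 107 ± 7.80 CPM in control and 110 ± 20.0 CPM in Sev, and SLC1A4, the ASCT1 carrier of serine and alanine, 22.0 ± 2.43 and 23.0 ± 7.36 CPM. Neither passed, with log2 fold changes of 0.04 (adjusted p = 0.812) and 0.06 (adjusted p = 0.842), and their groups overlapped.

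Of 9 tested SLC38A genes, 3 fell (33.3%) and 2 rose (22.2%), beside 21.5% and 22.1% of all features, and without SLC38A8 1 of 8 rose. SLC38A4 (ENSG00000139209, chr12:46764761-46832408, minus strand), a carrier of neutral amino acids best known from liver, fell most, from 3.40, 2.90 and 2.55 CPM in control to 1.04, 0.825 and 0.656 CPM in Sev. The groups were separate (log2 fold change −1.81, SE 0.24, adjusted p = 0.000945), and its antisense gene SLC38A4-AS1 also fell (−1.14, adjusted p = 0.00185). SLC38A9 (ENSG00000177058, chr5:55625845-55773194, minus strand), the arginine sensor of the lysosome that acts on mTORC1, measured 22.0, 19.4 and 19.4 CPM in control and 12.1, 10.2 and 10.1 CPM in Sev. Every Sev library lay below every control library (−0.91, SE 0.12, adjusted p = 0.00108). SLC38A7 (ENSG00000103042, chr16:58665109-58685104, minus strand), which exports glutamine from lysosomes, measured 24.6, 31.9 and 28.6 CPM in control and 21.7, 17.2 and 17.6 CPM in Sev. It fell with a narrow gap between groups (−0.59, SE 0.14, adjusted p = 0.011).

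The glutamine carriers SLC38A1 and SLC38A2 (SNAT1 and SNAT2) lay on the other side of 0. SLC38A1 (ENSG00000111371, chr12:46183063-46270017, minus strand) measured 136, 154 and 152 CPM in control and 182, 192 and 180 CPM in Sev. The groups were separate, but the rise was small (0.33, SE 0.080, adjusted p = 0.0129) and not past the threshold by library size alone (0.19, adjusted p = 0.0608). SLC38A2 (ENSG00000134294, chr12:46358189-46372867, minus strand), which cells use to adapt to low amino acids, measured 225, 234 and 233 CPM in control and 340, 554 and 244 CPM in Sev. All Sev libraries lay above control, yet they spread so widely that the log2 fold change of 0.72 (SE 0.26) had an adjusted p of 0.0525. Without Sev 2 the log2 fold change was 0.35, and without Sev 3 it was 0.96 with an adjusted p of 0.00848. DESeq2's Wald test gave an adjusted p of 0.0094, and edgeR with DESeq2's size factors gave 0.0482.

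SLC38A8 had 1, 0 and 0 counts in control and 14, 11 and 14 in Sev, or 0.339 ± 0.0413 CPM. Against a floor of 3 counts per control library this was at least 4.88-fold higher, in a gene that the filter let in only through Sev. The overlapping antisense gene ENSG00000285792 held 10, 5 and 9 counts in control and 31, 16 and 46 in Sev, and it too passed the filter only through Sev. SLC38A6 measured 7.39 ± 0.380 CPM in control and 5.67 ± 0.399 CPM in Sev, and it missed the threshold (−0.38, adjusted p = 0.0512) although its groups did not overlap, and it passed by library size alone (−0.52, adjusted p = 0.0241). TRMT5 on the opposite strand fell (−0.57, adjusted p = 0.0215). SLC38A10 at 116 ± 6.42 and 100 ± 11.2 CPM (−0.21, adjusted p = 0.118) and SLC38A3 at 9.71 ± 1.40 and 6.85 ± 2.15 CPM (−0.50, adjusted p = 0.129) did not pass. Both passed without Sev 2, with adjusted p of 0.0427 for SLC38A10 and 0.0436 for SLC38A3, and SLC38A10 also by library size alone (0.0124).

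The 2 tested proton-coupled SLC36A carriers, which act at lysosomes and the cell surface, did not pass in edgeR or in DESeq2, and only SLC36A4 had an unadjusted p under 0.05, at 0.0392. SLC36A1 (PAT1) measured 13.2 ± 3.44 CPM in control and 11.1 ± 2.43 CPM in Sev (−0.25, adjusted p = 0.409). SLC36A4 measured 33.0, 33.8 and 37.7 CPM in control and 30.8, 30.2 and 27.8 CPM in Sev, without overlap but with an adjusted p of 0.0791 (0.0136 by library size alone). Of the sodium-independent SLC43A carriers, SLC43A2 (ENSG00000167703, chr17:1569267-1628886, minus strand), the LAT4 carrier of branched-chain amino acids and methionine, rose from 10.2, 9.77 and 11.8 to 14.2, 14.8 and 13.8 CPM. The groups were separate, but the call (0.43, SE 0.12, adjusted p = 0.0229) was lost without control 1 (0.0691), control 2 (0.0728), Sev 1 (0.0633) or Sev 2 (0.0508), by library size alone (0.0999), with a replicate block (0.0595) and on every FPKM scale (0.211 to 0.312), 9 of 15 settings in all. SLC43A3 held 2, 7 and 2 counts in control and 15, 13 and 19 in Sev. It too passed the filter only through Sev, and its call, which rested on these few reads, was lost without control 1 or control 3. SLC43A1 (LAT3) measured 1.90 ± 0.527 and 1.59 ± 0.475 CPM and did not pass (adjusted p = 0.53).

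The other 11 members had at most 25 counts in any library and did not pass the filter on low counts. They were SLC1A6, SLC1A7, SLC7A3, SLC7A4, SLC7A10, SLC7A13, SLC7A14, SLC36A2, SLC36A3, SLC38A5 and SLC38A11, and SLC7A10 and SLC7A13 had 0 counts in all 6 libraries. In the edgeR fit without that filter the other 9 gave 0 calls, with adjusted p from 0.0756 to 0.97. SLC36A2, with 0 counts in each control library and 2, 2 and 4 in Sev, had the smallest and was the only gene of these with an unadjusted p under 0.05.

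Of the 15 calls, 10 were kept in every one of up to 15 other settings in which the gene could be fitted. SLC38A8, which passed the filter only through Sev, is among the 10 and was fitted in 12 settings, so its calls add no separate support. The 5 that were lost in some were SLC1A5, SLC7A7, SLC38A1, SLC43A2 and SLC43A3. Overlapping genes are a further limit, since the strand setting of the counting is not given in the sources used here. GENCODE 29 lists 52 genes that overlap 30 of the transporter genes, and of the 21 tested on the opposite strand 5 rose and 5 fell (23.8% each), close to the shares of all features. The 5 that rose include SLC1A2-AS1 and ENSG00000285792, which passed the filter only through Sev and so could be tested only where Sev was high.

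**Figure D4:**
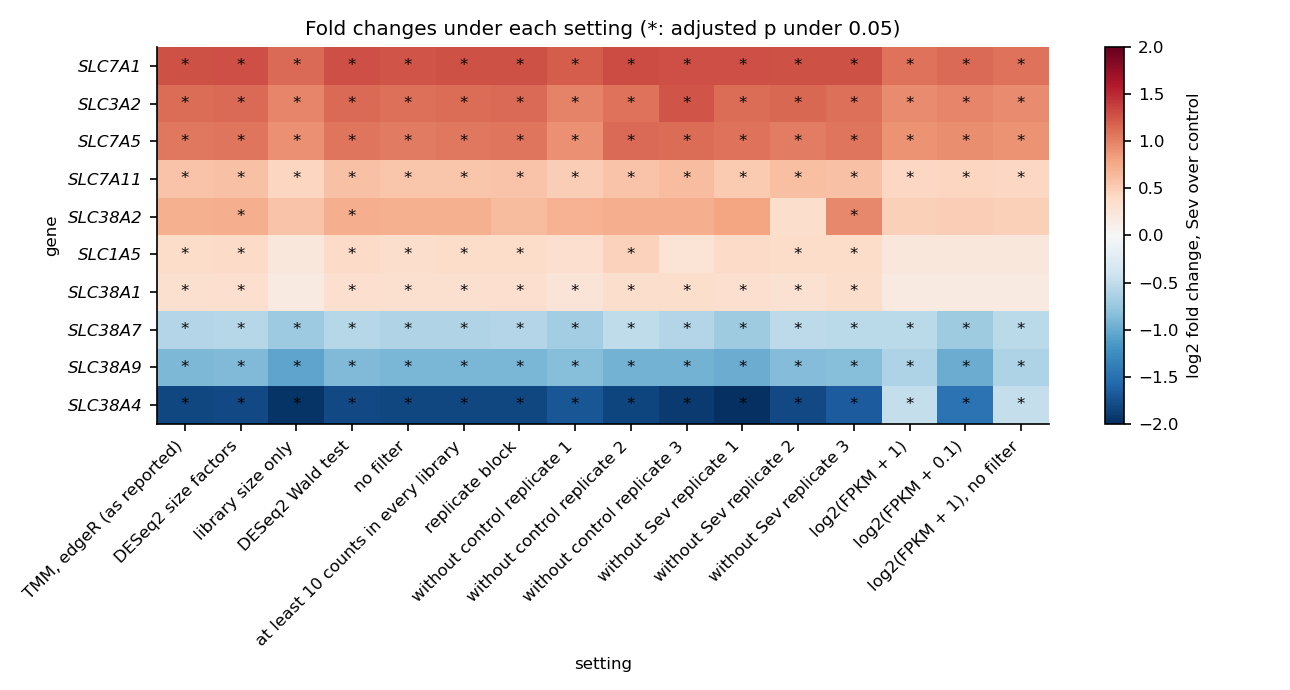
Log2 fold change (colour) of 10 transporter genes, by row, under each processing setting, by column, with a star for an adjusted p under 0.05. The rows of SLC7A1, SLC3A2, SLC7A5, SLC7A11, SLC38A7, SLC38A9 and SLC38A4 carry a star throughout, whereas SLC1A5 and SLC38A1 lose theirs in some columns and SLC38A2 has few.

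Genes that act with these carriers were described from 4 lists, chosen with earlier results of these data known. Beside each count stands the background of 22.1% of all features that rose and 21.5% that fell. Among 19 regulators of transporter genes 12 rose (63.2%) and 0 fell, with a median log2 fold change of 0.64. DESeq2's Wald test also gave 12 and 0, and 0 fell in edgeR at an unadjusted p under 0.05. SGK1, a kinase that keeps carriers at the membrane, rose from 59.3, 76.2 and 73.3 to 454, 488 and 373 CPM (2.65, SE 0.14, adjusted p = 4.18e-05). ATF4 rose from 187, 173 and 177 to 372, 411 and 349 CPM (1.08, SE 0.086, adjusted p = 0.000147), and its partner DDIT3 (CHOP) by 1.07 (adjusted p = 0.00049). MYC rose from 38.3, 21.2 and 43.9 to 134, 136 and 53.1 CPM (1.65, SE 0.39, adjusted p = 0.011), with Sev 3 near the control libraries. Its call was lost on unfiltered FPKM (limma adjusted p = 0.0617). BACH1, a repressor at antioxidant elements, rose by 1.10 (adjusted p = 0.000304). NFE2L2, which encodes NRF2, measured 79.1 ± 1.69 CPM in control and 73.3 ± 2.93 CPM in Sev and did not pass (−0.11, adjusted p = 0.264). By library size alone NFE2L2 passed as lower (−0.25, adjusted p = 0.0236), as it did in FPKM (adjusted p = 0.019), and it was the 1 regulator that fell there.

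Among 21 tested enzymes of glutamate, glutamine, cysteine and glutathione 7 rose (33.3%) and 1 fell (4.76%), with a median of 0.26. CHAC1, which degrades glutathione, rose from 7.47, 7.72 and 10.3 to 34.5, 30.4 and 35.1 CPM (1.97, SE 0.15, adjusted p = 0.00013). TXNRD1 (1.18, adjusted p = 0.00306) and GGT1 (1.13, adjusted p = 0.0127) rose too, although GGT1 lost its call on every FPKM scale (limma adjusted p from 0.0539 to 0.116). ASNS at 34.1 ± 3.28 and 37.6 ± 3.48 CPM, GCLM at 50.7 ± 8.81 and 52.4 ± 5.25 CPM and GLUL at 25.3 ± 3.04 and 22.0 ± 5.23 CPM did not pass (adjusted p = 0.344, 0.819 and 0.378).

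Among 33 genes of lysosomal amino acid sensing 7 rose (21.2%) and 6 fell (18.2%), close to the shares of all features, with a median of −0.01, and SLC38A9, described above, belongs to the same machinery. The cytosolic arginine sensor CASTOR1 fell from 3.74 ± 0.695 to 1.26 ± 0.519 CPM (−1.56, adjusted p = 0.00533), and NPRL2 (−0.74, adjusted p = 0.00384), of a complex that restrains mTORC1, fell as well. SESN2, a leucine sensor, rose from 18.2 ± 1.25 to 45.2 ± 9.21 CPM (1.31, adjusted p = 0.000559). By library size alone 12 of these genes fell. Among 24 tested amino acid carriers of other families 3 rose and 3 fell (12.5% each), below the shares of all features, with a median of 0.13. The mitochondrial carriers SLC25A29 (−1.39, adjusted p = 0.0015) and SLC25A38 (0.56, adjusted p = 0.00698) and the lysosomal SLC15A3 (−1.11, adjusted p = 0.00613) passed. SLC6A20, a proline carrier at 0.288 ± 0.222 and 0.998 ± 0.358 CPM, rose by 1.79 (adjusted p = 0.0292) and lost its call without control 2 (0.0899), control 3 (0.0914), Sev 2 (0.0744) or Sev 3 (0.0775).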

How the data were processed

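RNA of U251 cells was sequenced in 6 libraries, 3 control and 3 Sev, grouped by their labels. The authors deposited raw counts per gene and library, and FPKM values (scaled to gene length and library total) of the same features. Lengths implied by the counts and FPKM had a median ratio of 1.24 to GENCODE 29 exon lengths, with 1.11% of 11032 genes within 10% of 1. Levels between genes therefore rest on the deposited scaling, and the reason for the difference was not tested. The submitters' processing notes list bcl2fastq 2.19, featureCounts and hg18. The aligner, the annotation and the strand setting are not given in the sources used here, so gene positions come from GENCODE 29 on GRCh38, by Ensembl identifier (58457 matched), and symbols from a name table (60295 matched).

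Counts were fitted in R 4.3.3 with edgeR 4.0.16 (filterByExpr on the groups, TMM, glmQLFit, glmQLFTest, no covariate) and adjusted by Benjamini-Hochberg over 27514 features. Standard errors are the absolute log2 fold change over the square root of F. Alternatives were DESeq2 1.42.0, library size alone, other filters, each library left out, a replicate block, and limma 3.58.1 on log2(FPKM + 1) and log2(FPKM + 0.1), keeping features at or above 0.5 FPKM in 3 libraries. Shares over protein-coding genes were added after seeing the data. Fits were tested on simulated data. Ratios and figures used Python 3.11.15 with scipy 1.17.1 and matplotlib 3.10.9.

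Depth (38624292 to 46318311 counts) limits only genes with few counts, and otherwise 3 libraries per group limit precision. Floors of 3 counts cover counting error only. Replicates of a group differed by more than sampling noise. Replicate numbers are shared between groups, and the deviations of libraries with the same number correlated at −0.0072, 0.0035 and 0.027, so the numbers were not taken as pairs.

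Every member is accounted for, with full values for those past an adjusted p of 0.05 and for SLC7A11, SLC3A2, SLC7A5, SLC1A5, SLC38A2 and SLC38A9. The exceptions are SLC38A8 and SLC43A3, which passed the filter only through Sev and are described by their counts. From the other lists, ATF4, DDIT3, CHAC1, ASNS, NFE2L2, GCLM, GLUL and up to 4 passing genes per list with the largest change were named, and the results of some genes are not reported here. Members and lists were chosen with earlier results of these data known. Protein sequences were not used here.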

Additional observations from a re-analysis of the deposited data

How the results depend on the processing

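Of the 15 transporter calls, 10 were kept in every setting fitted, and no called gene changed sign. The 10 include SLC38A8, which passed the filter only through Sev. For "members higher in Sev, adjusted p under 0.05" the count of 11 was 4 on log2(FPKM + 1) and on log2(FPKM + 0.1), 7 on log2(FPKM + 1) without a filter, and 8 to 12 with a library left out. For "members lower in Sev, adjusted p under 0.05" the count of 4 was 7 by library size alone and on both filtered FPKM scales, and 4 to 6 with a library left out. For "members higher in Sev, study threshold" the count of 7 was 4 by library size alone, 1 on every FPKM scale, and 5 to 7 with a library left out. For "members lower in Sev, study threshold" the count of 1 was 2 by library size alone, 0 on log2(FPKM + 1) with or without the filter, and 1 with any library left out. The "median log2 fold change of tested members", 0.04, was −0.11 by library size alone, −0.10 on log2(FPKM + 1), −0.13 on log2(FPKM + 0.1), 0.31 without a filter and 0.069 to 0.32 with a library left out. The FPKM scales tested 21 members after filtering, and the count fit without a filter added members with few reads. The cause of the other moves was not tested. SLC38A2, not past the threshold with TMM, passed with DESeq2 and with DESeq2's size factors.

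For "all features higher in Sev, adjusted p under 0.05" the count of 6094 was 3676 on log2(FPKM + 1) and 3623 on log2(FPKM + 0.1), and 4780 to 5709 with a library left out, which left fewer samples. Enzymes that rose, 7, were 4 on both filtered FPKM scales and 3 without the filter. Enzymes that fell, 1, were 2 by library size alone, on log2(FPKM + 0.1) and on unfiltered FPKM, and 0 to 2 with a library left out. Regulators that fell, 0, were 1 by library size alone and on all FPKM scales, and 0 to 1 with a library left out. Lysosomal sensing genes that fell, 6, were 12 by library size alone and 10 on both filtered FPKM scales. Other carriers that rose, 3, were 5 without a count filter and 0 on unfiltered FPKM. With the replicate block, 10 members rose and 4 fell (SLC43A2 lost its call, adjusted p = 0.0595), the median was 0.03, and 0 enzymes fell. The numbers did not pair the libraries.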
